A study of Mus musculus with 30 samples.

Results

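The 38 synaptic vesicle release genes described here were chosen by name from what their proteins do, out of 45706 genes listed in the RNA tables, and each of the 38 was found on a single Ensembl ID. They comprise 4 core SNARE genes, 9 genes of the calcium sensor families (8 synaptotagmins, not all of which bind calcium, and Doc2b) and 7 vesicle membrane proteins. The others are 3 synapsins, 8 priming and active zone genes, 3 genes of the Rab3 group (Rab3a, Rab3c and the effector Rph3a), and 4 complexin and SNARE disassembly genes. The series asks what the homeodomain factor Mnx1 does in motor neurons induced from mouse embryonic stem (ES) cells. RNA was sequenced from HD motor neurons, EH motor neurons, wild-type motor neurons and ES cells, 2 libraries each. HD and EH are line names that the labels do not explain, and both carry the genotype label Mnx1KO. All motor neurons, knockout and wild type, were taken on day 6 of an induction with 1 µM retinoic acid, 1 µM SAG (a Smoothened agonist), 1 µM doxycycline and 5 µM DAPT (a Notch pathway inhibitor), and ES cells were wild type. ChIP-seq peak lists exist for HD and wild-type motor neurons, 1 list per histone mark and genotype, and 1 for Mnx1 in wild type. For each of these the labels name 2 ChIP libraries (1 for H3K9me3), which the lists do not separate. No label says that replicates were separate cultures, so p-values measure only the spread between these libraries.

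Neurons release transmitter when a vesicle SNARE protein zips together with SNARE proteins of the plasma membrane. Priming factors and active zone scaffolds make docked vesicles ready, synaptotagmins sense the calcium that enters with an action potential, complexins hold and then aid the SNARE complex, and an ATPase with its adaptor takes the complex apart again. Synapsins tether vesicles in reserve, and Rab3 proteins guide them to the active zone. Motor neurons use this machinery at the neuromuscular junction.

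Total expected counts (read counts that RSEM assigned to genes, M standing for mega-counts) came to 11.2 and 12.4 M in HD, 39.8 and 39.7 M in EH, 13.9 and 13.9 M in wild-type motor neurons, and 53.2 and 51.3 M in ES cells. Mnx1 RNA itself stood at 377 and 312 TPM in HD, 446 and 565 TPM in EH and 395 and 343 TPM in wild-type motor neurons, against 0.36 and 0.29 TPM in ES cells (TPM, a level scaled by transcript length and library size). Gene totals therefore do not show the knockout, and the labels do not say which part of the gene was altered. All 7 spinal motor neuron markers were above 1 TPM in each motor neuron library, with sums of 1592 and 1392 TPM in HD, 1825 and 2221 TPM in EH and 1693 and 1432 TPM in wild type. The 2 EH libraries differed: replicate 1 lay below replicate 2 in 32 of the 38 release genes, with a median ratio of 0.792. The median ratio of replicate 1 to replicate 2 was 1.07 in HD and 1.11 in wild type. The 7 pan-neuronal markers moved the same way, summing to 2812 and 3813 TPM in EH, 3994 and 3889 TPM in HD and 3552 and 3387 TPM in wild type. The 6 pluripotent markers held 207 and 77.4 TPM in EH, 86.0 and 76.0 in HD and 130 and 142 in wild type. The 7 trophoblast markers held 764 and 486 TPM in EH, 1394 and 1860 in HD and 1661 and 1871 in wild type. Neural progenitor, astrocyte and oligodendrocyte, and interneuron markers went the other way, with lower sums in EH replicate 1. EH replicate 1 lay farther from HD and wild type in pan-neuronal, pluripotent and interneuron sums. EH replicate 2 lay farther from them in motor neuron, trophoblast, progenitor, and astrocyte and oligodendrocyte sums. Which EH library is the less typical thus cannot be told from these sums. In bulk RNA, fewer neurons and less RNA per neuron cannot be told apart, and the part of other cells was not tested.

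The release genes spanned over 3 orders of magnitude in motor neurons, and the same 5 genes led in all 3 lines. Summed over the 38 genes, HD held 1982 and 1856 TPM, EH 1223 and 1588 TPM, wild type 1712 and 1575 TPM, and ES cells 184 and 190 TPM. Rab3a (a vesicle GTPase), Snap25 (a plasma membrane SNARE), Syt11 (a synaptotagmin that does not bind calcium), Vamp2 (the main vesicle SNARE of the brain) and Syp (synaptophysin, of the vesicle membrane) were the 5 at 100 TPM or more on average in each line. Together they made up 53.1% of the summed level in HD, 52.7% in EH and 51.9% in wild type. Their order differed between lines. Snap25 led in HD with 305 and 309 TPM, above both libraries of each other gene. Syt11 led in EH with 150.2 and 218 TPM, overlapping Vamp2 and Rab3a. Rab3a led in wild type with 211 and 177 TPM, and its libraries overlapped those of Snap25 and Syt11. At the other end, Unc13c (a Munc13 priming factor known from the cerebellum) stayed between 0.04 and 0.14 TPM in the 6 motor neuron libraries and Rph3a (rabphilin, a Rab3 effector) between 0.4 and 0.96 TPM.

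**Figure D1:**
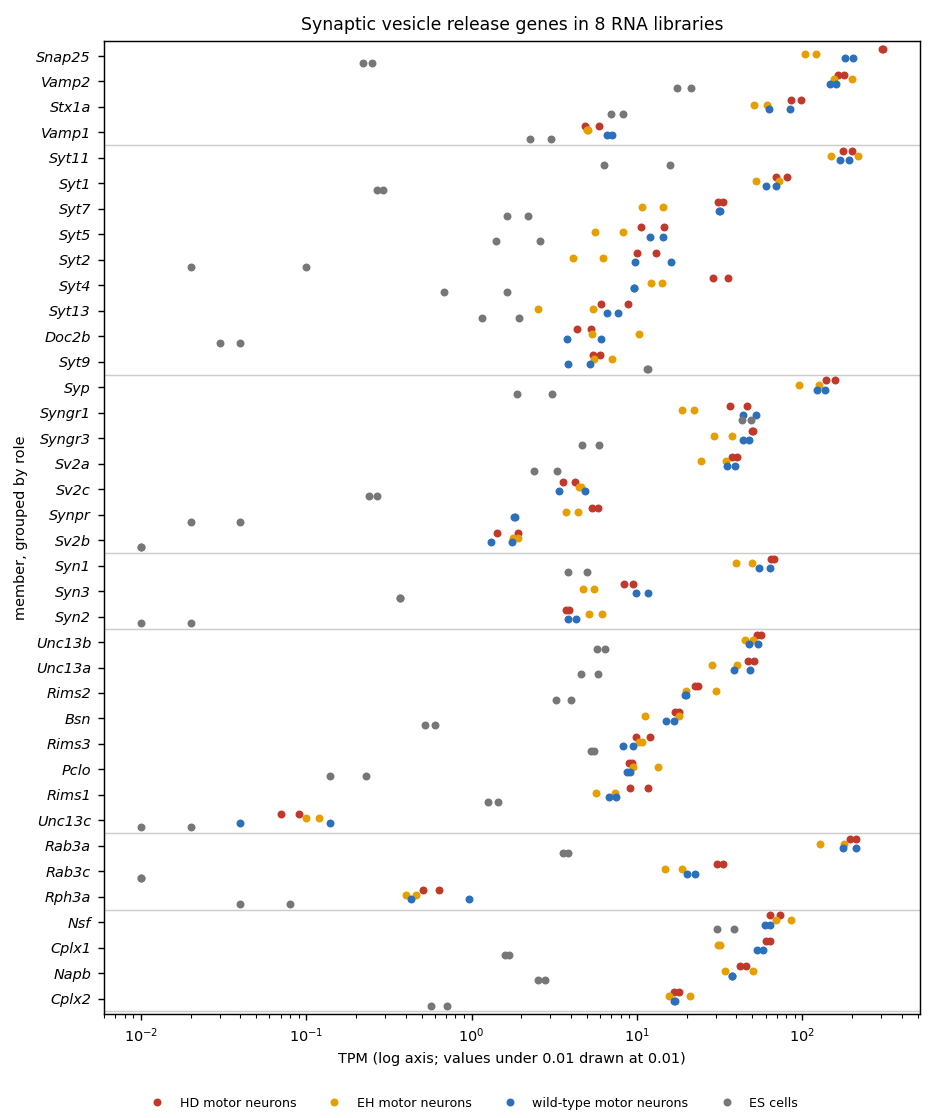
TPM of the 38 release genes (y axis, grouped by role) in each of the 8 RNA libraries (x axis, TPM on a log scale); points are single libraries, coloured by group. Motor neuron libraries lie to the right of the ES cell libraries for most genes, except Syngr1, whose libraries overlap, and Syt9, which is higher in ES cells.

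Against ES cells, wild-type motor neurons held more of nearly all release RNAs. In edgeR's quasi-likelihood test with Benjamini-Hochberg adjustment over 17770 genes, 36 of the 38 passed an adjusted p of 0.05, 35 of them higher and 1 lower. Over all genes 75.3% passed (38.8% higher and 36.5% lower). In TPM, both wild-type motor neuron libraries lay above both ES cell libraries for 36 genes and below them for 1, where 59.4% and 28.8% of all genes did so. The median log2 fold change of the release genes was 3.17, against 0.02 over all genes tested.

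Rab3c, a vesicle Rab3 GTPase, had 20.2 and 22.5 TPM in wild-type motor neurons, against 0.01 and 0.01 TPM in ES cells (log2 fold change 10.70 ± 0.26 SE, adjusted p = 1.01e-07), and its ES cell value rests on 5 counts. Snap25 had 182 and 203 TPM in wild-type motor neurons, against 0.22 and 0.25 TPM in ES cells (8.91 ± 0.17, adjusted p = 9.23e-08). Syt1, the fast calcium sensor of forebrain synapses, had 68.98 and 60.8 TPM in wild-type motor neurons, against 0.27 and 0.29 TPM in ES cells (7.22 ± 0.21, adjusted p = 1.19e-07). All 3 were at or near 0 in ES cells and clearly detected in both wild-type motor neuron libraries. Sv2b, a vesicle glycoprotein, had 129 counts in the wild-type motor neuron libraries against 3 in ES cells, a ratio of 162 after scaling with a 95% counting interval of 54.1 to 794. Unc13c passed the test on 10 counts in wild-type motor neurons against 5 in ES cells.

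The test did not pass for 2 release genes, and 1 was lower in motor neurons than in ES cells. Syngr1 (synaptogyrin 1, a vesicle membrane protein) had 43.6 and 52.2 TPM in wild-type motor neurons and 48.9 and 43.4 TPM in ES cells, with a log2 fold change of 0.05 ± 0.13 (adjusted p = 0.768). Nsf, the ATPase that separates used SNARE complexes and serves membrane traffic in all cells, had 63.6 and 59.95 TPM in wild-type motor neurons and 38.8 and 30.6 TPM in ES cells, and its fitted change from counts of 0.23 ± 0.14 did not pass (adjusted p = 0.163). Its TPM libraries did not overlap, and limma on log2(TPM + 1) called it at 0.82 ± 0.15 (adjusted p = 0.00196). The median over the genes kept in that limma fit was 0.51. Syt9, a synaptotagmin of fast release and of endocrine vesicles, was the 1 gene that fell, to 5.2 and 3.84 TPM in wild-type motor neurons against 11.7 and 11.4 TPM in ES cells (-2.02 ± 0.16, adjusted p = 8.65e-06). Rims3, a short RIM protein of the active zone, was 0.33 ± 0.12 higher (adjusted p = 0.04), a call that held in 2 of 10 alternatives.

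The isoform-weighted transcript length that RSEM estimates also differed between wild-type motor neurons and ES cells for 5 release genes, by a ratio over 1.4. This length was 1611.5 bases for Syngr1 in wild-type motor neurons, against 1097.4 bases in ES cells. It was 2076.5 against 1475.1 bases for Vamp2 and 5977.7 against 4008.3 bases for Unc13a (Munc13, the main priming factor of excitatory synapses). It was 11951.3 against 7943.6 bases for Bsn (bassoon, an active zone scaffold) and 8505.4 against 4411.7 bases for Sv2c, a vesicle glycoprotein. The ES cell lengths rest on 85 counts for Sv2c, 341 for Bsn, 1562 for Unc13a, 2006 for Vamp2 and 3392 for Syngr1. In each of the 5 both wild-type motor neuron libraries were longer than both ES cell libraries, by ratios of 1.41 to 1.93, 5 of 38 release genes beside 2.52% of all genes tested at a ratio of 1.4 or more; the bound was picked after the values were seen, so the count is a description. A level in TPM is divided by this length and a fold change from counts is not, so the 2 scales differ for these genes.

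Between HD and wild-type motor neurons, Syt4 was the 1 release gene that passed the test. In 1 fit of the 6 motor neuron libraries, 37 of the 38 genes were testable (Unc13c was too low). In HD against wild type 1 passed, higher in HD, beside 0.173% of 15565 genes (0.135% higher and 0.0385% lower). The fit shares 1 estimate of the spread per gene, so the EH libraries enter these p-values. At an unadjusted p under 0.05 there were 5 of 37, beside 5.6% of all genes, and 28 of 37 had a positive fold change, beside 46.6% of all genes, with a median log2 fold change of 0.15 against -0.01 over all genes. Both HD libraries lay above both wild-type libraries in TPM for 18 of the 37 genes and below them for 2, where 18% and 23.6% of all genes did so. The summed pan-neuronal markers were higher in both HD libraries as well, at 3994 and 3889 TPM against 3552 and 3387 TPM in wild type. The 6 pluripotent markers were lower in both HD libraries, at 86.0 and 76.0 TPM against 130 and 142 TPM in wild type. The part of either in this lean was not tested.

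Syt4, a synaptotagmin of secretory vesicles known as a poor calcium sensor in mammals, had 35.5 and 28.7 TPM in HD, against 9.55 and 9.67 TPM in wild type. The HD libraries were both about 3 times the wild-type level and did not overlap it, and the log2 fold change was 1.75 ± 0.14 (adjusted p = 0.0146). The call was lost when any single HD or wild-type library was left out, with an adjusted p of up to 0.356, while the fold change stayed between 1.59 and 1.89. Its transcript is 3901 bases in each library, so length does not enter.

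The other 4 genes with an unadjusted p under 0.05 in HD did not pass after adjustment. Synpr (synaptoporin, a relative of synaptophysin) had 5.32 and 5.85 TPM in HD, against 1.83 and 1.81 TPM in wild type, a log2 fold change of 1.63 ± 0.22 with an adjusted p of 0.0544. Snap25 had 305 and 309 TPM in HD, against 182 and 203 TPM in wild type (0.70 ± 0.11, adjusted p = 0.0765). Rab3c had 33.0 and 30.6 TPM in HD, against 20.2 and 22.5 TPM in wild type (0.58 ± 0.14, adjusted p = 0.292). In each of these 3 the HD libraries lay above the wild-type libraries without overlap. Syt2, the fast sensor of the neuromuscular junction and of brainstem synapses, had 13.0 and 10.1 TPM in HD, against 16.1 and 9.74 TPM in wild type, a fold change of -0.66 ± 0.24 from counts (adjusted p = 0.772). Its libraries overlapped in TPM, and its transcripts averaged 3093.3 bases in HD against 4480.2 bases in wild type. When only the HD and wild-type libraries were fitted, Synpr, Snap25, Rab3c and Syt4 passed, 4 of 37 genes beside 2.21% of 15182 genes. The 5 markers of GABAergic and glycinergic interneurons summed to 12.03 and 8.17 TPM in HD against 3.4 and 4.58 TPM in wild type, with 1 of the 5 under 1 TPM in each HD library and 4 and 3 in the wild-type libraries. The vesicular transporter Slc32a1 was under 0.1 TPM in both HD libraries and in wild-type replicate 1. The 7 trophoblast markers overlapped, at 1394 and 1860 TPM in HD and 1661 and 1871 TPM in wild type. The part of such cells in these differences was not tested.

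**Figure D2:**
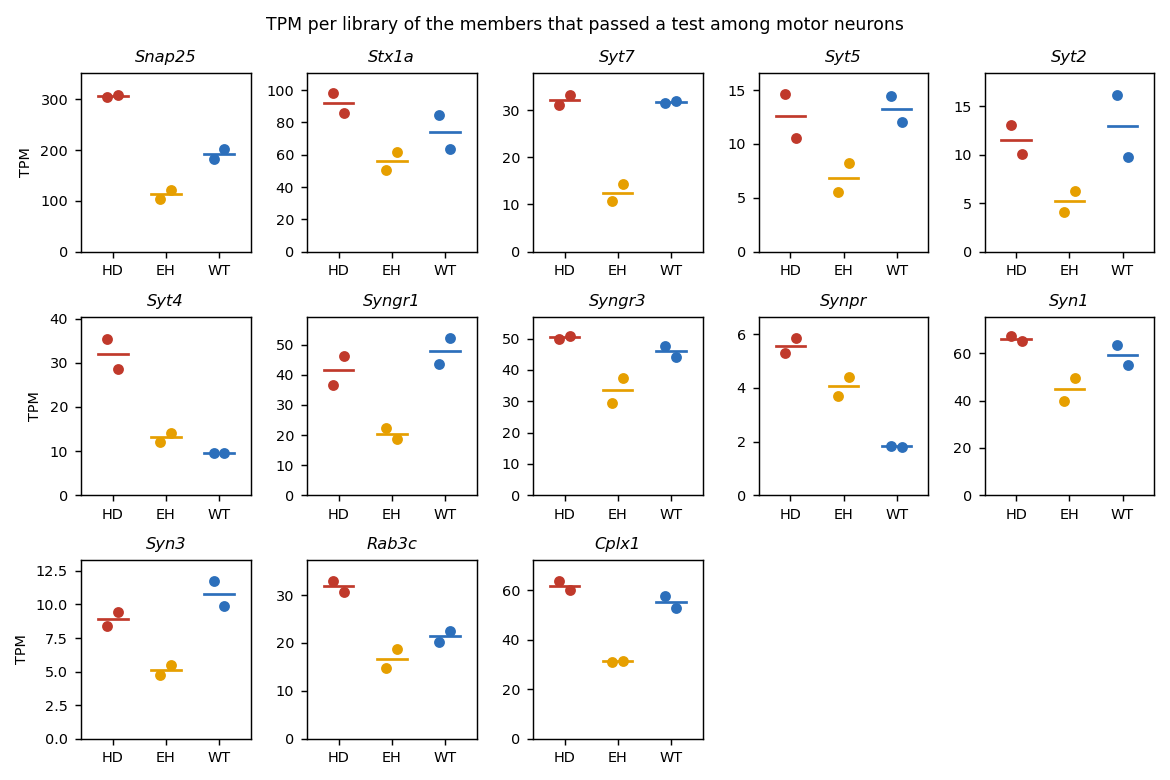
TPM (y axis, linear, from 0) of the 13 release genes that passed a test among motor neurons, in HD, EH and wild-type libraries (x axis); points are single libraries and bars are means of 2. Syt4 and Snap25 are highest in HD, and Syt7, Cplx1 and Syngr1 are lowest in EH.

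Between EH and wild-type motor neurons, 8 release genes passed, and 7 of these were lower in EH, among them Snap25, Syt7, Cplx1 and Syngr1. The 8 were 21.6% of the 37 tested, beside 21.2% of all genes, 9.61% higher and 11.6% lower. The share is thus close to that over all genes. The median log2 fold change was -0.17, and in TPM both EH libraries lay above both wild-type libraries for 8 genes and below for 14, against 28.1% and 32.5% of all genes. Which library was left out set the count: without EH replicate 1, 19 passed, 11 higher and 8 lower, beside 37% of all genes, and without EH replicate 2, 18 passed, 2 higher and 16 lower, beside 27.3%. Without wild-type replicate 1 the count was 2, beside 0.95% of all genes, and without wild-type replicate 2 it was 0, beside 0.598%. Whichever EH library was left out, these 8 passed.

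Among calcium sensors, Syt7, the slow, high-affinity sensor of asynchronous release, had 10.7 and 14.3 TPM in EH, against 31.6 and 31.9 TPM in wild type (log2 fold change -1.34 ± 0.14, adjusted p = 0.00492). Syt2 had 4.11 and 6.23 TPM in EH, against 16.1 and 9.74 TPM in wild type (-1.03 ± 0.24, adjusted p = 0.0259). Syt5, another vesicle synaptotagmin, had 5.55 and 8.19 TPM in EH, against 14.4 and 12.04 TPM in wild type (-0.93 ± 0.25, adjusted p = 0.0412), and it held in 5 of 12 alternatives. The EH libraries of all 3 lay below both wild-type libraries. Syt1 did not differ beyond its spread, at 52.5 and 72.0 TPM in EH and 68.98 and 60.8 TPM in wild type (-0.04 ± 0.16, adjusted p = 0.888).

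Of the SNARE core, Snap25 fell to 104 and 122 TPM in EH, against 182 and 203 TPM in wild type (-0.88 ± 0.11, adjusted p = 0.0059). Vamp1, the vesicle SNARE of spinal cord and neuromuscular synapses, had 5.01 and 5.04 TPM in EH, against 7.08 and 6.56 TPM in wild type, and did not pass (-0.28 ± 0.16, adjusted p = 0.266). Cplx1, a complexin of fast release, had 30.9 and 31.7 TPM in EH, against 57.7 and 53.0 TPM in wild type, and fell by the test (-0.81 ± 0.09, adjusted p = 0.00508). Its 2 EH libraries were nearly alike although EH replicate 1 was lower for most other release genes. Cplx2, the other complexin of the brain, had 16.8 and 17.9 TPM in HD, 15.6 and 21.0 TPM in EH and 16.7 and 16.9 TPM in wild type, and passed in neither line.

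Among vesicle proteins and synapsins, Syngr1 had 22.2 and 18.8 TPM in EH, against 43.6 and 52.2 TPM in wild type (-1.21 ± 0.14, adjusted p = 0.00539). Syn3, the synapsin of early neuronal development, had 4.74 and 5.48 TPM in EH, against 11.7 and 9.87 TPM in wild type (-1.08 ± 0.17, adjusted p = 0.0102). Both genes fell in EH without overlap between the libraries. Sv2a, the widespread member of the SV2 glycoproteins, had 24.5 and 34.4 TPM in EH, against 39.2 and 35.3 TPM in wild type, and did not pass (-0.31 ± 0.17, adjusted p = 0.223). Synpr was the 1 release gene that rose, to 3.72 and 4.42 TPM in EH against 1.83 and 1.81 TPM in wild type (1.13 ± 0.21, adjusted p = 0.0149). The 7 neural progenitor markers summed to 424 and 466 TPM in EH against 273 and 225 TPM in wild type, and the 7 trophoblast markers to 764 and 486 TPM in EH against 1661 and 1871 TPM in wild type. The part of these cells in the EH differences was not tested.

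No priming or active zone gene of the 7 tested passed in either line, beside 0.173% of all genes in HD and 21.2% in EH. The EH calls moved with the library left out: Pclo, Rims2 and Rims3 passed as higher without EH replicate 1, and Bsn and Unc13a as lower without EH replicate 2. Unc13a had 51.3 and 46.8 TPM in HD, 28.6 and 40.6 TPM in EH and 48.0 and 38.8 TPM in wild type. Unc13b, a second Munc13 priming factor, had 56.0 and 53.6 TPM in HD, 45.3 and 50.6 TPM in EH and 53.8 and 47.4 TPM in wild type. The libraries of the lines overlapped for both genes, except that both HD libraries of Unc13b and Unc13a lay above both EH libraries. Piccolo (Pclo), the scaffold partner of bassoon, had 9.31 and 8.93 TPM in HD, 9.42 and 13.5 TPM in EH and 8.67 and 9.09 TPM in wild type. The RIM scaffolds Rims1 and Rims2 had 11.7 and 9.05 TPM and 23.6 and 22.4 TPM in HD, 5.7 and 7.42 TPM and 19.7 and 30.1 TPM in EH, and 7.48 and 6.77 TPM and 19.6 and 19.8 TPM in wild type. For both, the HD libraries lay above wild type in TPM and the EH libraries overlapped it. From counts, the edgeR change in HD was 0.30 ± 0.20 for Rims1 and 0.23 ± 0.19 for Rims2 (adjusted p = 0.977 for each). Rims1 transcripts averaged 3642.1 bases in HD against 4287.5 bases in wild type, without overlap, and TPM is divided by this length. Over the 7 tested genes of this group the median log2 fold change was 0.16 in HD and 0.03 in EH, each against the same wild-type libraries.

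The sizes of the HD and EH changes differed by direct comparison for 10 release genes, each higher in HD. These were 10 of 37 (27%), beside 21.2% of all genes (11.8% higher and 9.43% lower), with a median log2 fold change of HD against EH of 0.41 against -0.01 over all genes. Snap25 showed the largest, at 1.58 ± 0.11 (adjusted p = 0.00172), with HD at 0.70 and EH at -0.88 against wild type. Syt7 followed at 1.38 ± 0.14 (adjusted p = 0.00365), and here HD was close to wild type (0.04) while EH was not (-1.34). Syt4 differed by 1.28 ± 0.14 (adjusted p = 0.00389), with EH at 12.2 and 14.1 TPM between HD and wild type. Syngr1 differed by 1.20 ± 0.14 (adjusted p = 0.00454), and its transcripts averaged 1814.1 bases in HD against 1609.6 bases in EH.

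Cplx1 differed by 0.98 ± 0.09 (adjusted p = 0.00248) and Rab3c by 0.92 ± 0.14 (adjusted p = 0.00788). Syn3 differed by 0.84 ± 0.17 (adjusted p = 0.0187), with 8.41 and 9.46 TPM in HD against 4.74 and 5.48 TPM in EH. Smaller differences passed for 3 genes. Stx1a (syntaxin, the plasma membrane partner of Snap25) had 98.1 and 85.7 TPM in HD, against 50.9 and 61.4 TPM in EH (0.64 ± 0.13, adjusted p = 0.0164). Syngr3, a synaptogyrin, had 49.99 and 50.7 TPM in HD, against 29.4 and 37.5 TPM in EH (0.58 ± 0.13, adjusted p = 0.0239). Syn1, the chief synapsin of axon terminals, had 67.2 and 65.0 TPM in HD, against 39.6 and 49.7 TPM in EH (0.56 ± 0.12, adjusted p = 0.0236). In TPM, 21 genes had both HD libraries above both EH libraries and 4 had them below, against 32.2% and 29.6% of all genes. Whichever EH library was left out, these 10 passed, among 17 (12 higher, 5 lower) without EH replicate 1, beside 32.5% of all genes, and 20 (all higher) without EH replicate 2, beside 31%. With HD replicate 1 or HD replicate 2 left out 5 passed, beside 5.08% and 1.74% of all genes in those fits. Synpr was the 1 release gene over 1 on the log2 scale in both lines, and its HD and EH values did not pass as different (0.50 ± 0.20, adjusted p = 0.116).

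**Figure D3:**
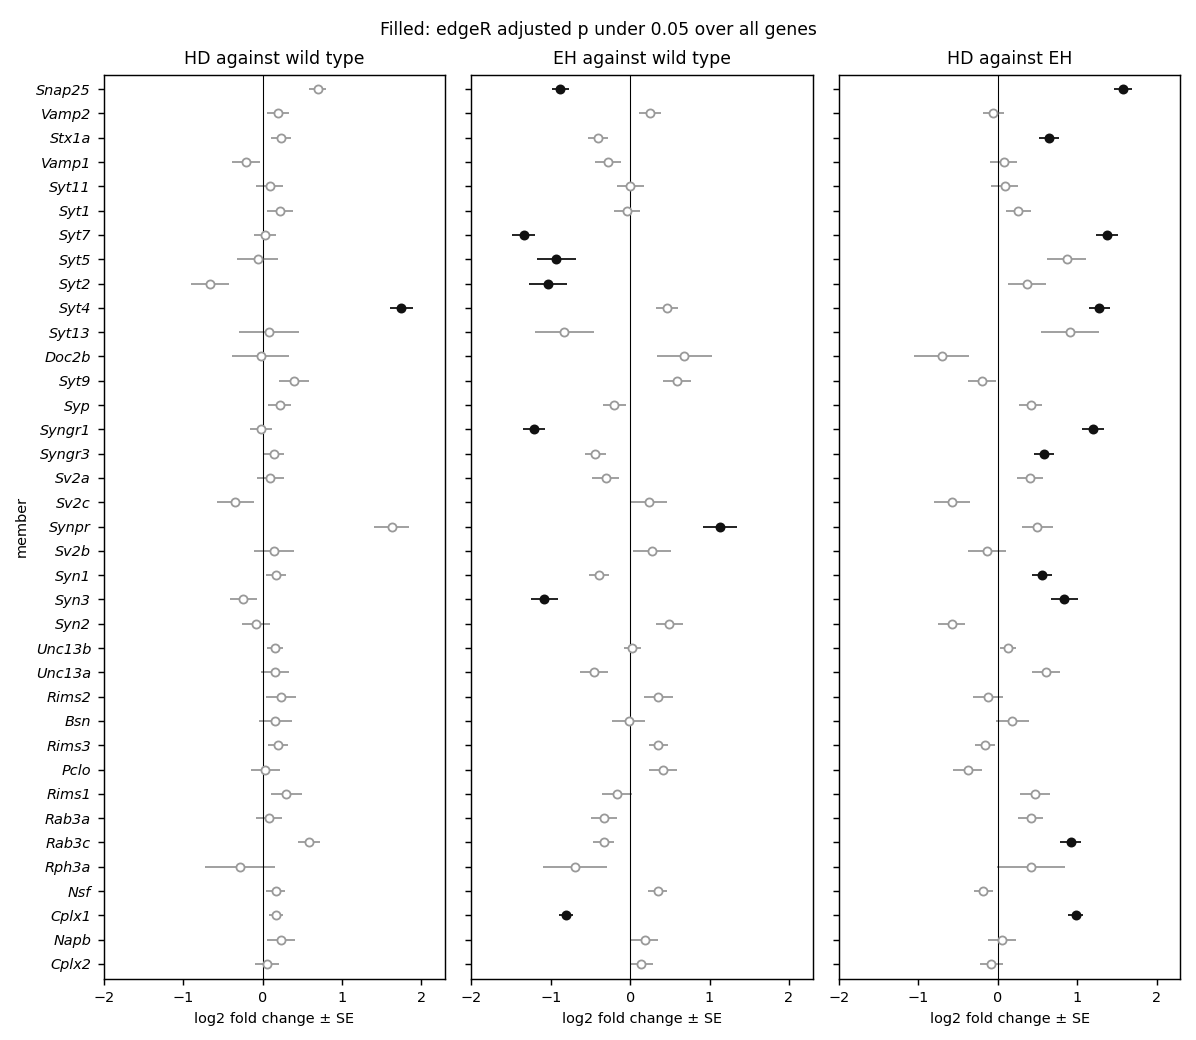
Log2 fold change ± SE (x axis) of 37 release genes (y axis) for HD against wild type, EH against wild type and HD against EH, from 1 edgeR fit of 6 libraries; filled points passed an adjusted p of 0.05 over 15565 genes. The first panel has 1 filled point (Syt4), the second 8 and the third 10.

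Other genes of the release machinery, 49 named from the same pathway, were read beside the 38; 48 were found and 45 tested. In HD against wild type 0 passed by edgeR, beside 0.173% of all genes, with 7 at an unadjusted p under 0.05, beside 5.6%. DESeq2 called 2, Syt6 and Cadps2, beside 1.11% of all genes; over the 12 alternatives Syt6 passed in 5 and Cadps2 in 4, edgeR settings among them. Nearest to the threshold were Syt6, a synaptotagmin, at 2.07 ± 0.37 (adjusted p = 0.132) and Cadps2, a priming factor, at 0.67 ± 0.13 (adjusted p = 0.16), then Rims4, a short RIM protein, at 0.71 ± 0.18 (adjusted p = 0.367) and Sh3gl2, an endophilin of vesicle recycling, at 0.31 ± 0.11 (adjusted p = 0.762). In EH 6 of 45 passed (13.3%, beside 21.2% of all genes). Rab27b, a GTPase of vesicle docking, rose by 1.90 ± 0.32 (adjusted p = 0.0113), and Stx2 (-0.71 ± 0.09, adjusted p = 0.00712) and Stx3 (-0.93 ± 0.13, adjusted p = 0.00739), both syntaxins, fell, as did Rims4 (-0.86 ± 0.18, adjusted p = 0.0197). Between HD and EH 11 passed (24.4%, beside 21.2%), 9 higher and 2 lower in HD, and against ES cells 37 of 45 passed in wild-type motor neurons (82.2%, beside 75.3%), 31 higher and 6 lower.

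At promoters, H3K4me3, the mark of active or poised starts, lay at all release genes but 1, and H3K27me3, the Polycomb mark, lay at 20 of them in wild type and 12 in HD. A peak was counted within 2 kb of the RefSeq start of a gene, or of either end of the gene for 10 genes without a listed start. H3K4me3 was found at 37 of 38 genes in HD and at the same 37 in wild type, against 63.3% and 64.2% of 21883 protein-coding genes; 0 of the 37 lacked it in HD alone, where 1.54% of all genes with it in wild type did. The exception was Syt11. No interval of any of the 11 lists lies between 88689181 and 88912679 on chromosome 3 (mm10), a stretch of 223499 bases with 4 gene starts, Syt11 among them, so Syt11 stands in the counts of peaks as a gene without one and was left out where levels or CpG are compared by mark. H3K4me1, of enhancers and promoter flanks, was found at 32 genes in HD and 34 in wild type, against 60% and 65.6% of all genes. Syn1 carried it in HD alone, and Syt4, Syt9 and Syn2 in wild type alone, where 2.18% of all genes without it in wild type had it in HD and 9.64% of those with it lacked it in HD.

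H3K27ac, the mark of active promoters and enhancers, was found at 23 release genes in HD and 20 in wild type, against 46.5% and 45.4% of all genes, and 18 carried it in both. Stx1a, Vamp1, Syt4, Syn3 and Napb (an adaptor of Nsf) carried it in HD alone, 5 of the 18 without it in wild type, where 3.58% of all such genes did. Syt5 and Sv2c carried it in wild type alone, 2 of 20, where 1.96% of all marked genes did. The authors' own peak values show that these were weak entries: the Syt4 peak in the HD list had a fold enrichment of 2.26 and a -log10 q of 3.08 over 597 bases, and ranked 16754 of 20698 regions by fold enrichment. The other 4 ranked lower still, from 2.19 for Syn3 to 1.82 for Vamp1, and none of the 5 reached a -log10 q of 5. At that bound 17 genes carried H3K27ac in HD and 17 in wild type. Since the lists do not separate the 2 libraries of a genotype, the difference was not tested. Entries of the H3K27ac list labelled wild type are named K27ac_KO, so which genotype is which rests on the list labels. Snap25, Rab3a and Syp, among the highest in RNA, carried H3K27ac in both lists.

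H3K27me3 was found at 12 release genes in HD and 20 in wild type, against 14.6% and 20.4% of all genes. All 12 of HD were among the 20. The 8 in wild type alone were Syt1, Syt5, Syt13, Unc13b, Unc13c, Rims3, Cplx1 and Bsn, or 40% of those marked, where 29.3% of all marked genes lacked it in HD. The HD list was shorter as a whole, with 5729 regions against 9365 in wild type. Bsn had the strongest of the 8, with a -log10 q of 5.31, and Unc13c the weakest, at 1.27. At a -log10 q of 5 or more the counts were 7 in HD and 10 in wild type. Of the 8 genes with H3K27me3 in wild type alone, 7 could be tested for RNA, and none passed in HD against wild type, where 0.173% of all genes did: Syt1 was at 0.22, Cplx1 at 0.17, Bsn at 0.16 and Syt5 at -0.06. H3K9me3, a heterochromatin mark, lay near 3 release genes in HD (Syt13, Sv2b and Doc2b) and 6 in wild type, against 6.82% and 10.1% of all genes. Syn3, Rims3 and Cplx1 had it in wild type alone and no release gene in HD alone. Of all genes with it in wild type, 40.9% lacked it in HD, and 0.946% of the others had it in HD alone. No H3K9me3 peak at a release gene reached a -log10 q of 5. The Syt13 peak of both lists and the Syn3 peak lay at the gene end without H3K4me3. The Sv2b peak in HD lay at a listed start away from the H3K4me3 peak of that gene.

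**Figure D4:**
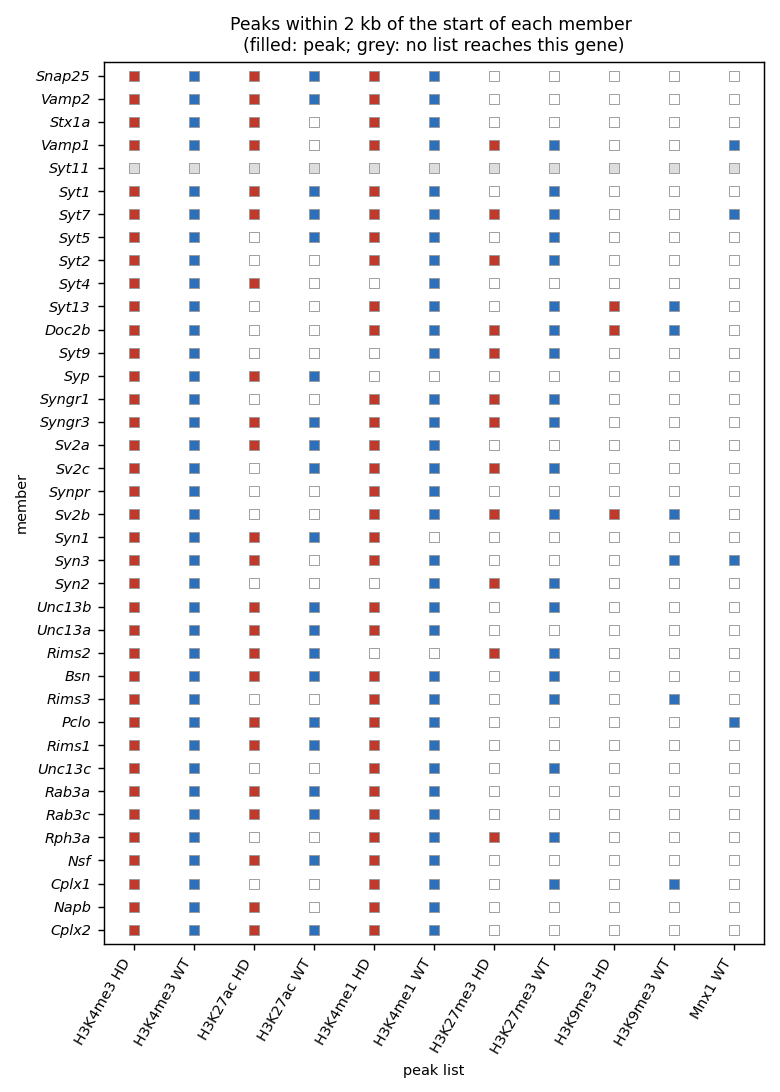
Peaks within 2 kb of the start of each release gene (y axis) in 11 peak lists (x axis); filled squares are peaks in HD or wild-type lists, open squares have none, and the grey row is Syt11, which no list reaches. H3K4me3 is filled for every gene but Syt11, and 8 genes have H3K27me3 in the wild-type list alone.

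Release genes with H3K27ac and no H3K27me3 had the higher levels in both genotypes. In HD, 19 such genes had a median of 49.1 TPM (8.94 to 307), 4 genes with both marks 27.6 TPM, 8 genes with H3K27me3 alone 4.36 TPM (0.575 to 41.5) and 6 genes with neither 9.22 TPM. In wild type, the medians were 51.4 TPM for 12 genes with H3K27ac alone (7.13 to 194), 25.7 TPM for 8 with both, 5.88 TPM for 12 with H3K27me3 alone (0.09 to 55.4) and 10.8 TPM for 5 with neither. The ranges overlapped, and the genotype of each H3K27ac list was taken from its label. Cplx1 and Syngr1 were the genes over 40 TPM with H3K27me3 and no H3K27ac in wild type, and Syngr1 was the one in HD.

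**Figure D5:**
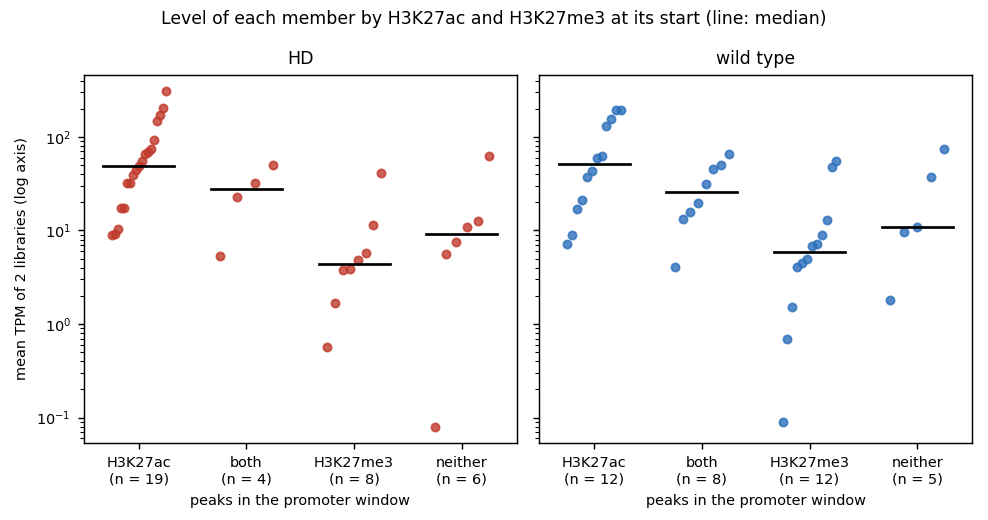
Mean TPM of 2 libraries (y axis, log scale) of 37 release genes by the H3K27ac and H3K27me3 peaks in their promoter windows (x axis), in HD and wild type; lines are medians. Genes with H3K27ac alone have medians near 50 TPM and genes with H3K27me3 alone medians of 4.36 TPM in HD and 5.88 TPM in wild type.

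Mnx1 peaks lay at a few release genes, a share near that of all genes. In wild type, 4 of 38 had one in the promoter window (Vamp1, Syt7, Syn3 and Pclo), against 14% of all genes, and 7 of 38 (18.4%) had one over the gene, against 16.8%, although their median span was 66685 bases against 17170. The Vamp1 peak lay at chr6:125215181-125215608, with its summit 40 bases from the gene's start, a fold enrichment of 3.28 and a -log10 q of 8.24. The Syn3 peak had its summit 63 bases inside an end of the gene (3.94, -log10 q of 10.4). Those at Syt7 (2.57, -log10 q of 3.45) and Pclo (2.74, -log10 q of 4.29) were 11 and 18 bases from an end or start, and both dropped out at a -log10 q of 5. Peaks farther inside lay 95097 bases from the start of Syt1, 58958 bases from that of Sv2c and 42239 bases from that of Unc13a, and a second Syn3 peak lay 133173 bases from the end of the gene with the first. Of these 7 genes, Syt7 and Syn3 passed in EH against wild type, beside 21.2% of all genes, and 0 passed in HD, beside 0.173%. Vamp1 had 4.83 and 5.91 TPM in HD, against 7.08 and 6.56 TPM in wild type, lower without overlap but not past the test (-0.21 ± 0.17, adjusted p = 0.977). Syt1 had 80.98 and 69.2 TPM in HD, against 68.98 and 60.8 TPM in wild type (0.22 ± 0.16, adjusted p = 0.977). Sv2c had 4.24 and 3.57 TPM in HD, 4.58 and 4.44 TPM in EH and 4.85 and 3.38 TPM in wild type. For the genes with the larger HD values, the nearest Mnx1 summit was 187537 bases from an end of Syt4, 109569 bases from an end of Snap25, 114164 bases from the start of Rab3c and 724567 bases from a start of Synpr.

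The promoters of Vamp1 and Pclo are shown because both lie under a Mnx1 peak. They run 250 bases before to 50 bases after the start (RefSeq, GRCm38.p6, the mm10 build), 5′ to 3′ on the gene's strand. Capitals mark TAAT, the short form of the homeodomain core, searched on both strands, which the letters TAATTA also contain. Vamp1 is chr6:125215331-125215630, plus strand, and Pclo is chr5:14514668-14514967, plus strand.
Vamp1: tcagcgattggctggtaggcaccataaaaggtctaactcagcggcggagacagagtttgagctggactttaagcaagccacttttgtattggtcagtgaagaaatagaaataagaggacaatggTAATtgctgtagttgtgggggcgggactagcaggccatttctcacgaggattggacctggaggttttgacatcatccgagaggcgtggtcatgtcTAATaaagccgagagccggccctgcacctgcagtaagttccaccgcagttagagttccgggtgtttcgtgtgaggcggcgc
Pclo: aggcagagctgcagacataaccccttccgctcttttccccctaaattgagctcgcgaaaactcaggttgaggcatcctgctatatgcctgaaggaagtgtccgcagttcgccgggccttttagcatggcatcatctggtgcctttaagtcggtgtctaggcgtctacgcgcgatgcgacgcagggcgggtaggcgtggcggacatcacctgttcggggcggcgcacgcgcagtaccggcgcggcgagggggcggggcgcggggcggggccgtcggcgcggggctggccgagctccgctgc
Vamp1 holds TAAT 126 and 31 bases before its start and Pclo holds none. Promoters were listed for 28 of the 38 genes, 38 promoters in all; 23 of these held TAAT (60.5%), where 58% of all 32851 promoters do, and 0 held TAATTA, where 5.29% do.

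Among the 28 release genes with listed promoters, those of Unc13a and Syn1 are shown as the only ones with a part of RE1. RE1 is the element bound by the neuronal gene repressor REST. Capitals mark TTCAGCACC and GGACAGCGC, the left and right parts of RE1, and TGACGTCA, the cAMP response element, all searched on both strands. Unc13a is chr8:71671708-71672007, minus strand, and Syn1 is chrX:20920869-20921168, minus strand.
Unc13a: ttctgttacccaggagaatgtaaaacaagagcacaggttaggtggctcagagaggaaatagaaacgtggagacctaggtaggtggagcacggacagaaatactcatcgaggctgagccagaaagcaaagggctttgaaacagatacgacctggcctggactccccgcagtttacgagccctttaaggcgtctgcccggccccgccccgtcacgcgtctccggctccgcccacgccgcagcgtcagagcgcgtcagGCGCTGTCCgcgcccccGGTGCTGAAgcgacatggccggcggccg
Syn1: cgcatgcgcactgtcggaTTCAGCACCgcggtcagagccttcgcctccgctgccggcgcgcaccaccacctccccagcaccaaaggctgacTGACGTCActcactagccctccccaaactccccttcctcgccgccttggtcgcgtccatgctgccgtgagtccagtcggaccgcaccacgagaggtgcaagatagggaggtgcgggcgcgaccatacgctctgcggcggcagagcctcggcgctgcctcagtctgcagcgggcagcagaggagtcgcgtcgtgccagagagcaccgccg
Unc13a holds both RE1 parts, on the opposite strand, 5 and 22 bases after its start. The parts were searched separately and their spacing was not compared with that of a whole RE1, so an intact element is not shown. Syn1 holds the left part 232 bases and the cAMP response element 159 bases before its start. Of all promoters 0.371% hold the left part, 0.405% the right part and 1.79% the cAMP response element. Unc13a had 48.0 and 38.8 TPM in wild-type motor neurons, against 5.86 and 4.58 TPM in ES cells (3.02 ± 0.18, adjusted p = 1.93e-06), and Syn1 had 63.6 and 55.1 TPM in wild-type motor neurons, against 4.98 and 3.81 TPM in ES cells (3.11 ± 0.17, adjusted p = 1.08e-06). Passing as higher than in ES cells was shared by 35 of the 38 release genes. In ES cells both genes lay above the median of the release genes (1.775 TPM). Any part of REST was not tested.

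The median release gene promoter held more CpG pairs than the median over protein-coding genes, a difference given as a description. Taking the most CpG-rich start of each gene, the median was 19.5 CpG in 300 bases over 28 release genes, against 15 over 17491 protein-coding genes. The 14 genes with H3K27me3 in wild type had a median of 20.5 (6 to 49) and the 13 without it, Syt11 left out, a median of 19 (9 to 38), and the ranges overlapped.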

How the data were processed

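RNA was measured in 8 libraries and chromatin in 22, grouped from the labels. The submitters' processing notes name MACS2, Bowtie2, Trim Galore, STAR, RSEM, SAMtools, Subread, featureCounts and DESeq2 and the build mm10; versions and roles are not given in the sources used here. The authors deposited, per the file headers, an expected count, a TPM and a length per gene. The deposited peak lists have the MACS2 layout, giving per peak its fold enrichment over background (a ratio) and its -log10 q; the lists do not separate replicates, so ChIP values have no error here. The H3K27ac list labelled wild type has entries named K27ac_KO, and its label was followed. The labels do not give the antibody behind the Mnx1 list.

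Rounded expected counts were fitted with edgeR 4.0.16 (R 4.3.3; TMM, filterByExpr, quasi-likelihood, Benjamini-Hochberg adjusted p under 0.05). The motor neuron fit had 6 libraries and 3 residual degrees of freedom, the fit with ES cells 8 libraries and 4. SE is the log2 fold change over the square root of F. DESeq2 1.42.0 and limma 3.58.1 (log2 of TPM + 1) served as alternatives. Peaks with the same ends were counted once, at the highest fold, with an overlap of 1 bp; they were joined to genes with Python 3.11.15 and pandas 2.3.3. The tests were tried on simulated data. Replicates of a group differed beyond sampling noise. Replicate numbers were not treated as pairs in the main fits, since no label says that they pair samples. The correlation of same-numbered deviations was 0.26 for HD with wild type, -0.16 for EH with wild type and -0.26 for HD with EH. HD and EH were compared with the same wild-type libraries. Counting intervals cover counting error only, since reads carry no molecular identifiers. The genes, lists and tests were chosen with earlier results of these data known. All 38 genes are named; values per library are given for those that passed among motor neurons, the 2 highest of a role group with none, and those with a Mnx1 peak.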

Additional observations from a re-analysis of the deposited data

Results flagged for a closer look

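The changes of HD and EH, each against wild type, differed by a direct test for 10 release genes. Line and library depth cannot be told apart here, with EH at 39.8 and 39.7 M counts and HD at 11.2 and 12.4 M. Values are log2 fold changes of HD against EH. Syt4 stood at 1.28, with both lines above wild type (1.75 in HD and 0.47 in EH), and passed against wild type in HD alone. Snap25 stood at 1.58 and Rab3c at 0.92, with fold changes above wild type in HD and below it in EH. Against wild type, Snap25 passed in EH alone and Rab3c in neither line. Syt7 (1.38), Cplx1 (0.98), Syngr1 (1.20) and Syn3 (0.84) were close to wild type in HD, within 0.24 on the log2 scale, and passed as lower in EH. Stx1a (0.64), Syn1 (0.56) and Syngr3 (0.58) also passed in neither line against wild type, although both EH libraries lay below both wild-type libraries for all 3 (-0.41 for Stx1a, -0.39 for Syn1 and -0.44 for Syngr3 in EH), and each passed as lower in EH without EH replicate 2.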

How the results depend on the processing

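With 2 libraries a group, counts of passing release genes moved with the libraries used, and the cause was not tested. Leaving out 1 library at a time gave 0 to 4 genes in HD against wild type (1 with all), 0 to 19 in EH (8), 5 to 20 for HD against EH (10) and 32 to 34 against ES cells (36). For HD against wild type, DESeq2 gave 4, no filter on low counts 3 and the HD and wild-type libraries alone 4. With the replicate number as a block the count for HD was 0 (4 at an unadjusted p under 0.05). With this block it was 6 for EH, 9 for HD against EH and 35 against ES cells. No label says whether equal replicate numbers mark samples made together. No fold change of a gene that passed turned its sign: over genes and alternatives, 75 values in EH kept their side of the threshold and 21 did not, 103 and 17 for HD against EH, 7 and 5 in HD, and 340 and 15 against ES cells. At a -log10 q of 5 or more, H3K27me3 remained at 7 genes in HD and 10 in wild type, H3K27ac at 17 in each, H3K9me3 at 0 in both and Mnx1 at 2, and H3K9me3 in HD reached 5 genes with a 5 kb window. In limma on log2(TPM + 1), the median change against ES cells was 0.51 over the genes kept in that fit. These had a mean of 1 TPM or more in at least 1 group, so they are not the genes of the edgeR fit. HD and wild type, at 11.2 to 13.9 M counts, were the shallower libraries. No ChIP value has a replicate spread.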
